A study of Mus musculus with 12 samples.

Results

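The genes described here are 10 endothelial genes of blood vessels, *Kdr*, *Flt1*, *Tek*, *Tie1*, *Pecam1*, *Esam*, *Emcn*, *Plvap*, *Eng* and *Vwf*, chosen by name as known genes of the cells that line blood vessels. All 10 were among the 15687 genes of the deposited table, and all 10 passed the filter on low values. They were measured by bulk RNA sequencing in 12 subcutaneous tumors of mTc11 cells, a mouse lung cancer line, grown in male C57BL6/J mice. The 6 CTL tumors grew from cells carrying the shControl construct, a scrambled short hairpin RNA delivered by lentivirus, and the 6 *Filip1l*-knockdown tumors (Filip1l KD in the labels) from cells carrying a hairpin against *Filip1l*. The mice were 8 weeks old, each received 1000000 cells in growth factor-reduced Matrigel, and the tumors were taken at day 24 and snap-frozen. The hairpin was in the injected cancer cells, so the vessels, stroma and blood cells of every tumor came from unmodified mice. Which of the 2 hairpin targets of the study the sequenced tumors carried is not given in the sources used here. The labels call the 6 tumors of a group biological replicates. The question was whether the vessel genes differed between the groups, and whether they followed *Vegfa* from tumor to tumor.

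Tumors draw blood vessels from the host, largely in response to vascular endothelial growth factor A, the product of *Vegfa*, which hypoxic tumor cells secrete. VEGFA binds 2 receptor kinases on endothelial cells: KDR (VEGF receptor 2), which carries most of the growth signal, and FLT1 (VEGF receptor 1), which binds the ligand tightly and also exists as a soluble form that traps it. A second receptor pair, TEK (also called TIE2) with its partner TIE1, responds to the angiopoietins and governs the maturation and stability of vessels. *Filip1l*, the gene knocked down here, is also known from endothelial cells, where the angiogenesis inhibitor endostatin induces it.

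Endothelial genes are commonly bound by ETS factors, whose binding sites share the core letters GGAA. The 250 bases before the RefSeq start follow for 4 of the 10 genes (build GRCm38.p6, 5′ to 3′ on the strand of the gene), to show where that core occurs before 3 of the receptor genes and before *Emcn*, the gene with the largest difference of the 10. Capitals mark GGAA or its reverse complement TTCC.

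Kdr (chr5:75978456-75978705, minus strand): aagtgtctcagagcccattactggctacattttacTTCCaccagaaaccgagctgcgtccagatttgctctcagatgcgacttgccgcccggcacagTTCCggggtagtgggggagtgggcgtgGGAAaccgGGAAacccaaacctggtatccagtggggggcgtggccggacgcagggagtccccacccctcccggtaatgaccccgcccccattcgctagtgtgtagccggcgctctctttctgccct

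Flt1 (chr5:147726012-147726261, minus strand): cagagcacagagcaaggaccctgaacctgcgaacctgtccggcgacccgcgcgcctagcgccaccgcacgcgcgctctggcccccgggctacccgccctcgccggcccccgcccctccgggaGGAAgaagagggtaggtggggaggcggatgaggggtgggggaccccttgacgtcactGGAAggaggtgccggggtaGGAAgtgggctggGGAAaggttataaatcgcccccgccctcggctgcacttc

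Emcn (chr3:137340828-137341077, plus strand): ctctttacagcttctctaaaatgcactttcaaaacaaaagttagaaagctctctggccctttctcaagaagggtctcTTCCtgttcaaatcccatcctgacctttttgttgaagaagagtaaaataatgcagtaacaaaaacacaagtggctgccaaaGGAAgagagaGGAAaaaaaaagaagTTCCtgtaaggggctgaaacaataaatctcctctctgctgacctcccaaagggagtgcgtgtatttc

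Tek (chr4:94739039-94739288, plus strand): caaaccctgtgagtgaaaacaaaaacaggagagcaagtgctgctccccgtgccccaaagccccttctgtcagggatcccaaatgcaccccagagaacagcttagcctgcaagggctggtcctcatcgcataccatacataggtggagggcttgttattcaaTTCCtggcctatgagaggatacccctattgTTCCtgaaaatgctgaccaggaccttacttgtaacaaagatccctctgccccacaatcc

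RefSeq promoter windows were found for 6 of the 10 genes (*Kdr*, *Flt1*, *Tek*, *Tie1*, *Emcn* and *Eng*). The letters GGAA, searched on both strands, occurred in all 6 windows: 4 matches in *Kdr*, 4 in *Flt1*, 2 in *Tek*, 7 in *Tie1*, 4 in *Emcn* and 3 in *Eng*. Of all 32851 promoter windows of this length, 30698 (93.4%) held a match, so a match was the common case. ACGTG, the core letters of the hypoxia response element, occurred in 0 of the 6 windows and in 16.6% of all windows. A match is only a run of letters, and no binding was measured.

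Each tumor held between 17834745 and 32419578 reads in the listed genes, with the fewest in CTL 5 and the most in knockdown tumor 5. *Filip1l* mRNA itself was lower by 0.26 (log2, SE 0.07) in the knockdown group, with 2311 ± 211 against 1924 ± 165 normalized counts (mean ± SD, n = 6 each, limma adjusted p = 0.00998). Its ranges overlapped, from 1983 to 2542 in the CTL tumors and from 1670.1 to 2184 in the knockdown tumors. Knockdown tumor 1, at 2184, lay within the CTL range. The tumors also differed in other tissue. With the mean level of skeletal muscle genes as a covariate, the *Filip1l* difference kept its size at -0.27 but did not pass (limma adjusted p = 0.0673). Without knockdown tumors 1, 3 and 4 it was -0.32 and passed (limma adjusted p = 0.0111). The summed normalized counts of 10 skeletal muscle genes ran from 2335 to 12594 in the CTL tumors and from 5533 to 91216 in the knockdown tumors, and knockdown tumors 1, 3 and 4 held the highest levels. The epithelial genes of the tumor cells were present in every tumor, with *Epcam* at 5448 ± 1227 and 15465 ± 3289.6 normalized counts (SD, n = 6 each).

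Vessel genes were higher in the *Filip1l*-knockdown tumors. All 10 had a positive log2 difference, where 50.9% of all genes did, and 8 of 10 passed an adjusted p of 0.05 (limma on log2 of the normalized count plus 1, all 12 tumors, Benjamini-Hochberg over 15687 genes). Of all genes, 21.1% passed upward at that threshold and 20.7% passed downward. None of the 10 fell. The median difference of the 10 genes was 0.47 (log2), against 0.0078 over all genes. No member reached the log2 difference of 1 that the study also asked for, which 6.2% of all genes passed upward. In 3 of the 10 genes, *Pecam1*, *Emcn* and *Plvap*, every knockdown tumor lay above every CTL tumor, as in 10.6% of all genes. In bulk tissue, fewer cells of a type and less RNA per cell cannot be told apart, and the same holds for more cells and more RNA per cell. Fewer of the 10 genes passed in the fits that took the muscle genes into account. With the mean muscle level as a covariate, 4 of the 10 genes passed. With knockdown tumors 1, 3 and 4 left out, 4 passed as well in the 9 tumors that remained. Of all 15687 genes, 2479 passed upward with the covariate and 3317 without those 3 tumors, against 3314 in the main fit. What lowered the count of vessel genes was not tested. The median difference of the 10 genes was 0.35 with the covariate and 0.38 without those 3 tumors. The same genes, *Flt1*, *Pecam1*, *Emcn* and *Plvap*, passed in both cases. Both settings were added after the data were seen.

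**Figure D1:**
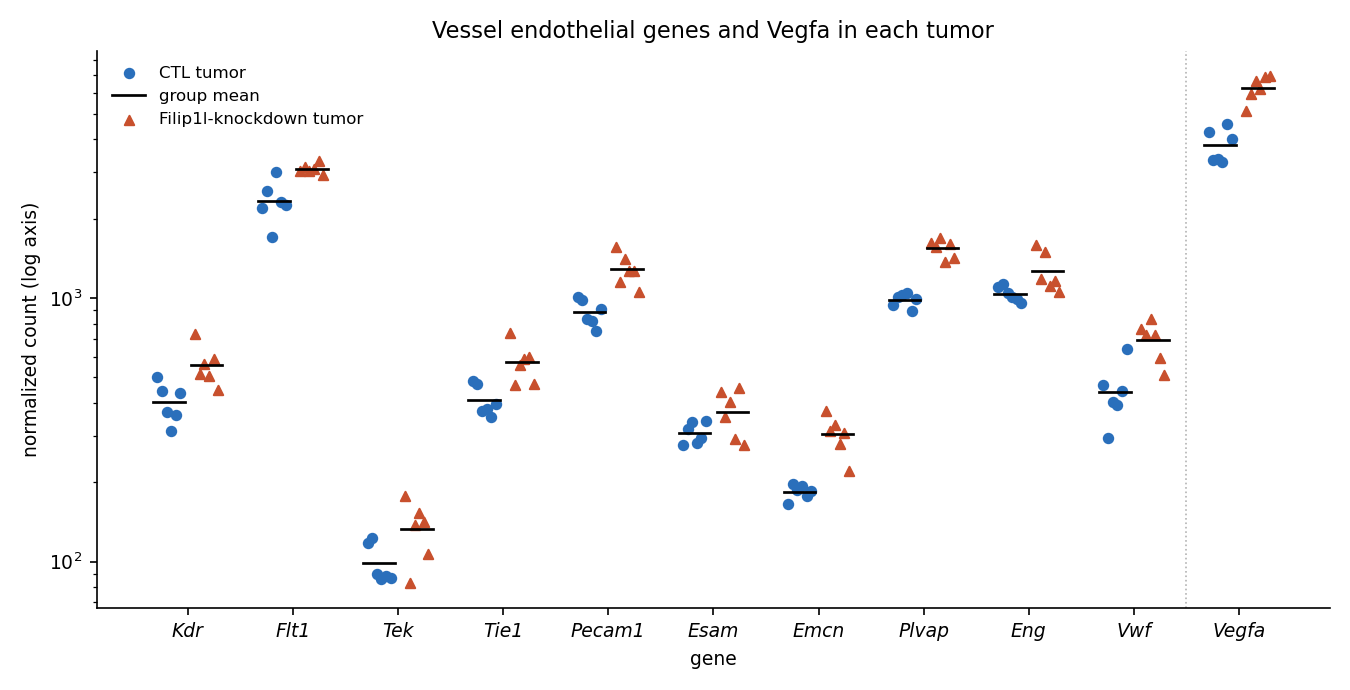
Normalized count (log axis) of the 10 vessel genes and of *Vegfa* in each tumor. Blue circles are the 6 CTL tumors, orange triangles the 6 *Filip1l*-knockdown tumors and black bars the group means. The groups do not overlap for *Pecam1*, *Emcn*, *Plvap* and *Vegfa*.

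The VEGF receptors were both higher. *Kdr* (ENSMUSG00000062960, chr5:75932827-75978458, GRCm38) had normalized counts of 500.0, 444, 369, 314, 359 and 436 in CTL tumors 1 to 6, and of 729, 516, 561, 508, 587 and 449.8 in knockdown tumors 1 to 6. Only knockdown tumor 6 lay within the CTL range. The log2 difference was 0.47 (SE 0.13, 95% interval 0.19 to 0.74, limma adjusted p = 0.00932), a 1.38-fold higher level. *Flt1* (ENSMUSG00000029648, chr5:147561604-147726011), whose product restrains VEGF signaling, had 2199, 2544, 1703, 3017, 2319.8 and 2258 in the CTL tumors, and 3049, 3138, 3041, 3095, 3309.9 and 2934 in the knockdown tumors. It was far more even among the knockdown tumors, with a coefficient of variation of 4.06%, than among the CTL tumors, with 18.5%. CTL 4 reached 3017 and overlapped the lowest knockdown tumor. *Flt1* differed by 0.42 (SE 0.10, adjusted p = 0.00421). Exact permutation tests over all arrangements of the group labels gave p = 0.00433 for *Kdr* and p = 0.00433 for *Flt1* (two-sided). *Kdr* lost its call with the muscle covariate (0.36, adjusted p = 0.143) and without knockdown tumors 1, 3 and 4 (0.37, adjusted p = 0.0617).

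Of the angiopoietin receptors, *Tie1* rose and *Tek* did not pass. *Tek* (ENSMUSG00000006386, chr4:94739289-94874976) had 118, 123, 89.4, 85.7, 88.1 and 86.4 normalized counts in the CTL tumors and 177, 83.3, 138, 153, 142 and 107 in the knockdown tumors. Knockdown tumor 2, at 83.3, was the lowest of all 12, while 4 knockdown tumors lay above the CTL range. The difference was 0.41 with a wide error (SE 0.18, adjusted p = 0.0869, exact permutation p = 0.0584). Without knockdown tumor 2 it was 0.53 and passed (adjusted p = 0.0178), while it was 0.20 with the muscle covariate (adjusted p = 0.583) and 0.15 without knockdown tumors 1, 3 and 4 (adjusted p = 0.588). *Tie1* (ENSMUSG00000033191, chr4:118471191-118490061), the partner receptor of TEK, had 485, 473, 374, 379.8, 354 and 396 in the CTL tumors and 739, 466, 558, 586, 599 and 472 in the knockdown tumors. Knockdown tumors 2 and 6 fell within the upper part of the CTL range. *Tie1* differed by 0.47 (SE 0.12, adjusted p = 0.00597, exact permutation p = 0.013), but it did not pass with the muscle covariate (0.33, adjusted p = 0.133) or without knockdown tumors 1, 3 and 4 (0.32, adjusted p = 0.0627).

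Among the genes of adhesion and junctions, *Pecam1* rose. Its product CD31 holds endothelial cells together and is the usual histologic stain for vessels. *Pecam1* (ENSMUSG00000020717, chr11:106654217-106750628) had 1008, 980.1, 836, 815, 753 and 913 normalized counts in the CTL tumors and 1567, 1155, 1407, 1271, 1271 and 1056 in the knockdown tumors. The groups did not overlap. It differed by 0.54 (SE 0.10, 95% interval 0.33 to 0.75, adjusted p = 0.000564), or 1.45-fold, with the smallest p that the exact permutation test allows (0.00216). *Esam* (ENSMUSG00000001946, chr9:37528078-37538319), a tight junction adhesion molecule of endothelium and platelets, had 276, 319, 338, 282, 296 and 341 in the CTL tumors and 442, 354, 405, 293, 456 and 278 in the knockdown tumors. Knockdown tumors 4 and 6 lay within the CTL range and the other 4 above it. The difference of 0.24 (SE 0.13, 95% interval -0.03 to 0.52) missed the threshold with an adjusted p of 0.144. Without knockdown tumor 6 it was 0.32 and passed (adjusted p = 0.0484), while it was 0.18 without knockdown tumor 5 (adjusted p = 0.292), 0.13 with the muscle covariate (adjusted p = 0.634) and 0.21 without knockdown tumors 1, 3 and 4 (adjusted p = 0.279).

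Among the surface glycoproteins were the gene with the largest difference of the 10, *Emcn*, and the one with the smallest error, *Plvap*. *Emcn* (ENSMUSG00000054690, chr3:137341067-137432185) encodes endomucin, a sialoglycoprotein of capillaries and veins. Its normalized counts were 165, 197, 187, 194, 178 and 186 in the CTL tumors and 373, 312, 331, 280.0, 309 and 221 in the knockdown tumors. It was narrow among the CTL tumors and did not overlap between groups. The difference was 0.70 (SE 0.12, 95% interval 0.46 to 0.95, adjusted p = 0.000237), a 1.63-fold higher level. *Plvap* (ENSMUSG00000034845, chr8:71497765-71511752) encodes the protein of the diaphragms that span endothelial fenestrae and is abundant in leaky tumor vessels. It had 942, 1008, 1028, 1047, 896 and 995 in the CTL tumors and 1622, 1564, 1696, 1368, 1598 and 1421 in the knockdown tumors. Its lowest knockdown tumor stood 1.31-fold above its highest CTL tumor. *Plvap* had the smallest adjusted p of the 10 (3.22e-06), with a difference of 0.65 (SE 0.06, 95% interval 0.51 to 0.78).

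*Eng* and *Vwf* were more spread. *Eng* (ENSMUSG00000026814, chr2:32646595-32682669) encodes endoglin, a coreceptor for ligands of the TGFβ family on proliferating endothelium. It had 1103, 1131, 1049, 1007, 995 and 961 normalized counts in the CTL tumors and 1589, 1185, 1489.9, 1108, 1159.5 and 1051 in the knockdown tumors. Only knockdown tumors 1 and 3 stood well apart from the CTL tumors, and knockdown tumors 4 and 6 overlapped them. The difference of 0.26 (SE 0.10, adjusted p = 0.0429, exact permutation p = 0.0173) was close to the threshold and missed it when any 1 of 8 tumors was left out, CTL 1, 3, 4, 5 or 6 or knockdown 1, 2 or 3 (0.20 to 0.28 in those fits). It was 0.14 with the muscle covariate (adjusted p = 0.448) and 0.12 without knockdown tumors 1, 3 and 4 (adjusted p = 0.22). Of the exon bases of *Eng*, 1.51% are shared with *Fpgs* on the opposite strand, and whether counting used strand is not given in the sources used here. The other 9 genes share none. *Vwf* (ENSMUSG00000001930, chr6:125546774-125686679) encodes von Willebrand factor, the clotting protein stored by endothelial cells and platelets. It had 469, 295, 403, 393, 445 and 643 in the CTL tumors and 765, 723, 836, 726, 592 and 510.1 in the knockdown tumors. CTL 6 lay above knockdown tumors 5 and 6, so the groups overlapped. The difference was 0.67 (SE 0.16, adjusted p = 0.00461, exact permutation p = 0.00649). It did not pass with the muscle covariate (0.30, adjusted p = 0.224) or without knockdown tumors 1, 3 and 4 (0.49, adjusted p = 0.0677).

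The 10 genes were then read against *Cdh5*, the gene of VE-cadherin, which is itself made by endothelial cells, to ask whether any moved apart from endothelial RNA as a whole. *Cdh5* was higher by 0.45 (SE 0.11, adjusted p = 0.00413), with means of 762 ± 50.9 in the CTL and 1051 ± 186 in the knockdown tumors (normalized counts, SD, n = 6 each). Its difference was 0.27 with the muscle covariate and did not pass (adjusted p = 0.155), and without knockdown tumors 1, 3 and 4 it was 0.34 (adjusted p = 0.0322). As a ratio to *Cdh5* in the same tumor, 0 of the 10 genes passed in either direction by limma, while 59% of all genes did and the median of all genes was -0.44 on that scale. At an unadjusted p under 0.05, 0 of the 10 passed. The differences of the ratios were highest for *Emcn* at 0.26 (SE 0.14, 95% interval -0.03 to 0.55), *Vwf* at 0.22 (SE 0.17) and *Plvap* at 0.20 (SE 0.13). They were near 0 for *Kdr* at 0.02, *Flt1* at -0.02, *Tek* at -0.04 and *Tie1* at 0.02, and lowest for *Esam* at -0.20 and *Eng* at -0.18. The intervals ran from -0.27 to 0.31 for *Kdr*, from -0.33 to 0.28 for *Flt1* and from -0.44 to 0.36 for *Tek*, so changes relative to *Cdh5* within these bounds were not detectable with 6 tumors a group.

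**Figure D2:**
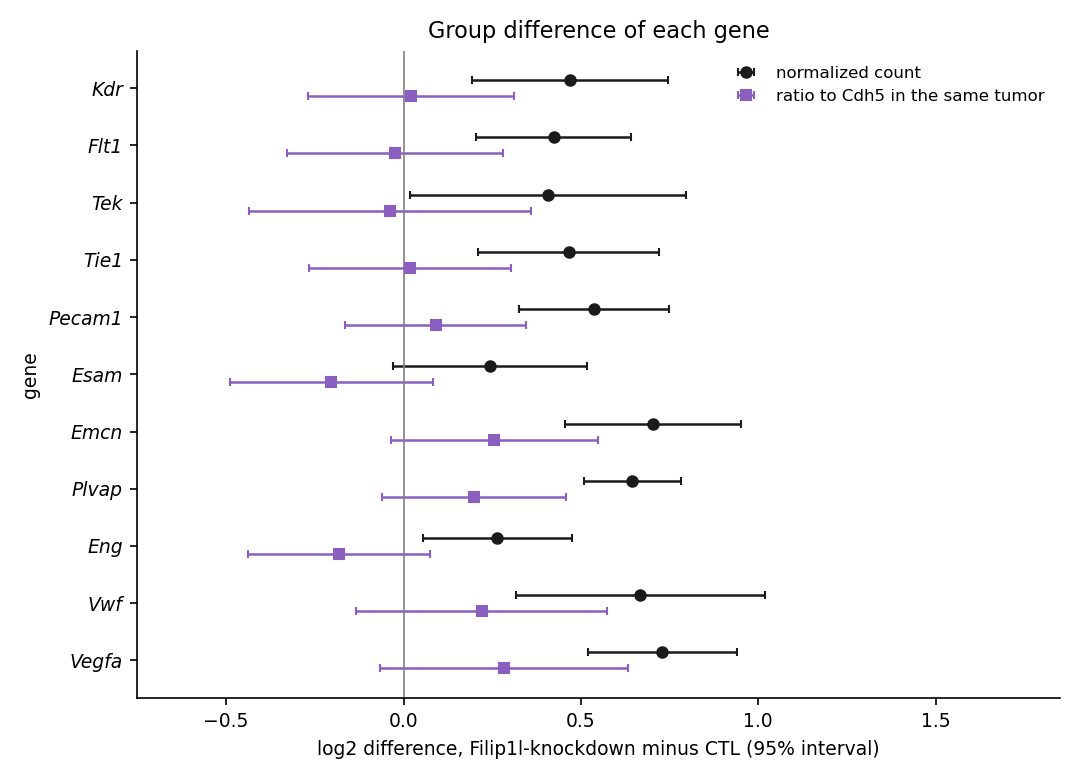
Group difference of each gene on the log2 scale, *Filip1l*-knockdown minus CTL, with 95% intervals from limma. Black circles are normalized counts and purple squares the ratio to *Cdh5* in the same tumor. The circles of all 10 vessel genes lie to the right of 0, between 0.24 and 0.70, and the intervals of all squares include 0.

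Levels were compared between genes per length of exon (normalized counts per kilobase of GENCODE vM21 exons, mean over the CTL tumors). *Plvap* was highest with 496 ± 28.5 (SD, n = 6), followed by *Eng* with 257 ± 16.3, *Flt1* with 173 ± 32, *Pecam1* with 142 ± 16, *Esam* with 108 ± 9.85 and *Tie1* with 83.4 ± 11.2. Lowest were *Kdr* with 44.7 ± 7.54, *Emcn* with 34.1 ± 2.16, *Vwf* with 27.5 ± 7.19 and *Tek* with 20.9 ± 3.66. The ranges over the 6 tumors overlapped between the neighbours *Flt1* and *Pecam1*, *Esam* and *Tie1*, *Kdr* and *Emcn*, *Emcn* and *Vwf*, and *Vwf* and *Tek*, so the order of those pairs is not settled. Per length, mRNA of the restraining receptor *Flt1* stood above that of the signaling receptor *Kdr* in both groups, with 229 ± 9.31 and 61.9 ± 10.6 in the knockdown tumors.

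The mean log2 level of the 10 genes, relative to the CTL mean, was 0.08, 0.08, -0.07, -0.05, -0.10 and 0.06 in CTL tumors 1 to 6. It was 0.75, 0.37, 0.60, 0.43, 0.53 and 0.20 in knockdown tumors 1 to 6. All knockdown tumors lay above all CTL tumors on this mean. Knockdown tumor 1 was highest of its group in 6 genes, *Kdr*, *Tek*, *Tie1*, *Pecam1*, *Emcn* and *Eng*, and knockdown tumor 6 was lowest in 7, *Kdr*, *Flt1*, *Pecam1*, *Esam*, *Emcn*, *Eng* and *Vwf*.

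Within groups most of the 10 genes varied together from tumor to tumor. Of the 45 pairs, 40 had a positive Pearson correlation of their deviations from the group means over 12 tumors, with a median of 0.40 and a range of -0.18 to 0.92. These correlations describe genes measured in the same libraries and carry no test, and pairs of other genes were not read beside them. The tightest pair was the 2 angiopoietin receptors, *Tek* and *Tie1*, at 0.92. *Pecam1* followed the mean of the other 9 genes most closely (0.92), then *Tie1* (0.80), *Kdr* (0.79) and *Eng* (0.78). *Vwf* (0.19) and *Flt1* (-0.03) followed it least. Without knockdown tumor 1 the median over the pairs was 0.25, and 38 of the 45 stayed above 0.

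**Figure D3:**
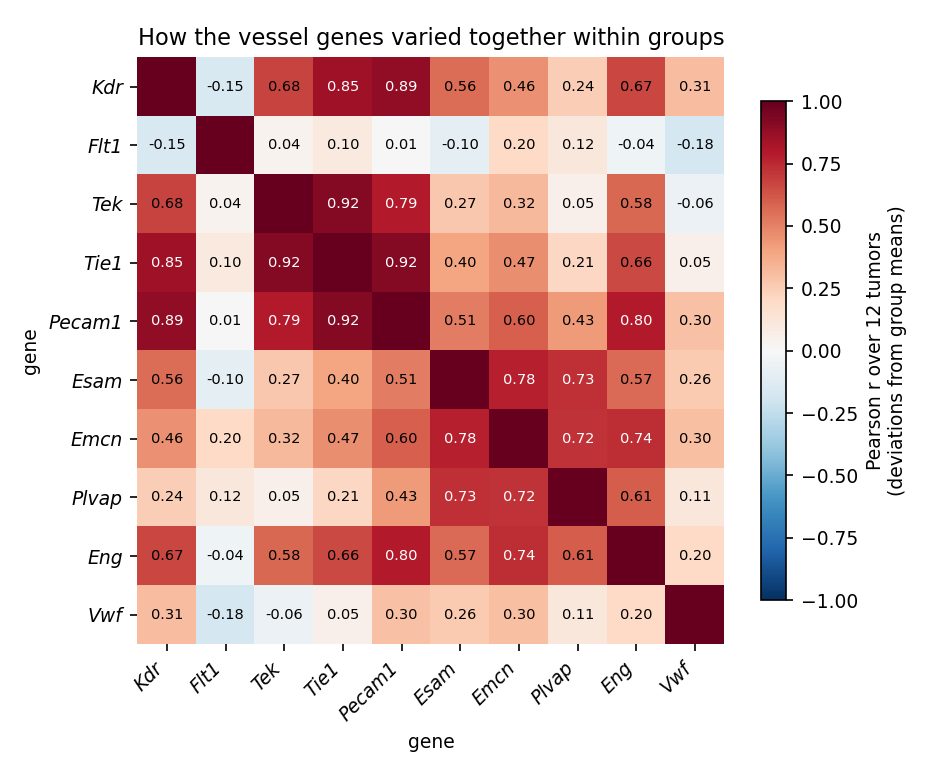
Pearson correlation between the vessel genes, computed over the 12 tumors on deviations from the group means, with the value printed in each cell and colored from blue (-1) to red (1). *Kdr*, *Tek*, *Tie1* and *Pecam1* form 1 block of high values, *Esam*, *Emcn* and *Plvap* another, and the rows of *Flt1* and *Vwf* are pale.

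*Vegfa*, the ligand of KDR and FLT1, was higher in the knockdown tumors. Its normalized counts were 4254, 3354, 3359.6, 3293, 4577 and 4006 in the CTL tumors and 5119.9, 5939, 6646, 6205, 6903 and 6961 in the knockdown tumors, with no overlap. The difference was 0.73 (SE 0.10, 95% interval 0.52 to 0.94, adjusted p = 4.33e-05), or 1.66-fold. Within groups, no rise of a vessel gene with *Vegfa* passed a test. In a limma fit with group and log2 *Vegfa* as terms, 9 of the 10 slopes were negative, *Vwf* being the exception at 0.27, and 0 of the 10 passed. The share of negative slopes over all genes is not given. Most of the 10 genes varied together, so the signs of their slopes are not separate results. Of the 15686 other genes, 0% passed an adjusted p of 0.05 in that fit and 5.11% an unadjusted p of 0.05, so the fit called no gene at all. Of the 10 vessel genes, 0 had an unadjusted p under 0.05. *Emcn* came nearest with a slope of -0.62 (95% interval -1.28 to 0.04, unadjusted p = 0.0626, adjusted p = 0.942).

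In the correlations of deviations from the group means, *Emcn* had an unadjusted p under 0.05 where its slope had not. For *Emcn*, r was -0.61 (permutation p = 0.0254) and rho -0.80 (permutation p = 0.00668) over the 12 tumors. For *Plvap* they were -0.52 (permutation p = 0.0909) and -0.57 (permutation p = 0.0766), and for *Pecam1* -0.35 (permutation p = 0.268) and -0.26 (permutation p = 0.463). These p-values are not adjusted. For each of the 10 genes, r and rho with *Vegfa* were computed over the 12 tumors and again in each group. Without CTL 5 and knockdown tumor 1, the 2 tumors whose *Vegfa* deviation from the group mean lay farthest from the median deviation, r was -0.51 for *Emcn*, -0.33 for *Plvap* and 0.13 for *Pecam1*. It also turned positive for *Kdr* (from -0.12 to 0.39), *Tek* (from -0.18 to 0.15) and *Tie1* (from -0.33 to 0.16), so the negative sign of these 4 rested on those 2 tumors. The deviations behind these r values were still taken from the means of all 6 tumors of a group, so they are not purely within-group values. Knockdown tumor 1 had the lowest *Vegfa* of its group, at 5119.9, and the highest mean of vessel genes. Without it alone, 6 of the 10 slopes were negative. The slope did not differ between the groups for any member after adjustment (limma interaction over all genes). *Vwf* had the lowest unadjusted p there, 0.0476 (adjusted p = 0.295), with r = 0.58 (exact permutation p = 0.258) and rho = 0.71 (exact permutation p = 0.136) in the CTL tumors and r = -0.56 (exact permutation p = 0.256) and rho = -0.60 (exact permutation p = 0.242) in the knockdown tumors. For *Plvap*, r was -0.94 (exact permutation p = 0.00278) and rho -0.94 (exact permutation p = 0.0167) in the CTL tumors and -0.19 (exact permutation p = 0.718) and -0.20 (exact permutation p = 0.714) in the knockdown tumors, and the interaction did not pass (unadjusted p = 0.509).

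**Figure D4:**
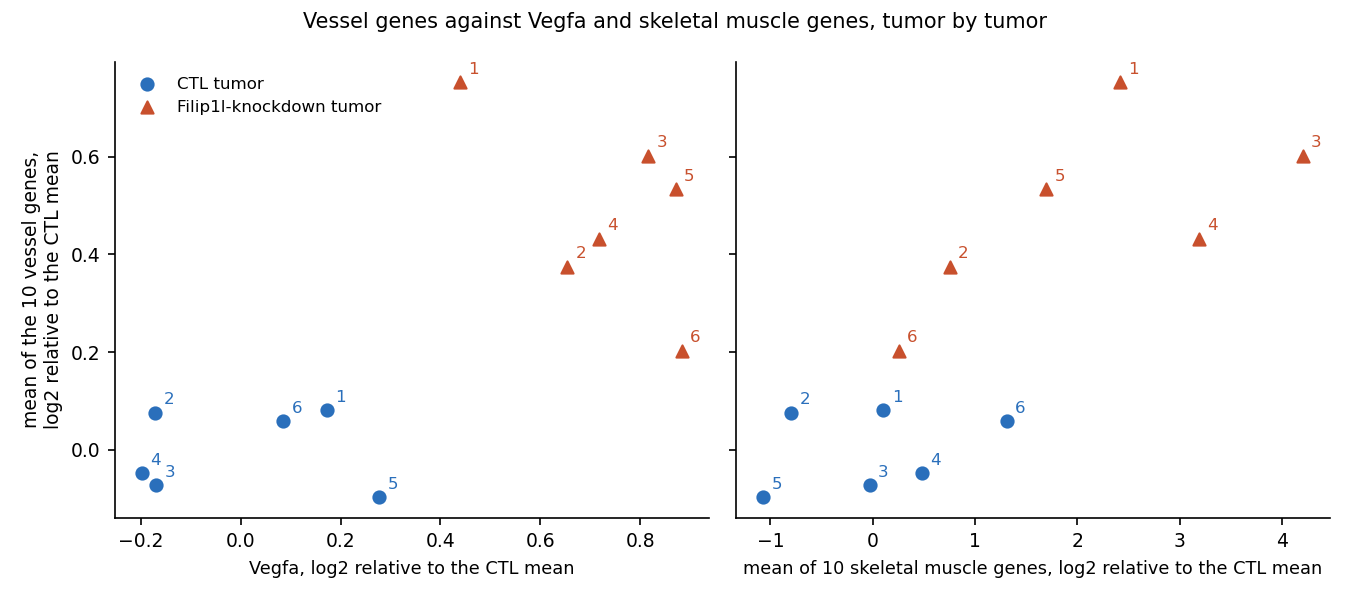
Mean log2 level of the 10 vessel genes, relative to the CTL mean, against *Vegfa* (left) and against the mean of 10 skeletal muscle genes (right), each on the log2 scale relative to the CTL mean. Blue circles are CTL tumors and orange triangles *Filip1l*-knockdown tumors, numbered by replicate. Knockdown tumor 1 has the highest vessel mean (0.75) with the lowest *Vegfa* of its group (0.44), and knockdown tumor 3 the highest muscle level (4.20).

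Against *Filip1l* mRNA, 9 of the 10 genes had a positive correlation of deviations within groups. The share of positive values over all genes is not given. Most of the 10 genes varied together, so these signs are not separate results. The correlation was highest for *Eng* with r = 0.72 (permutation p = 0.00155) and rho = 0.89 (permutation p = 0.00115) over the 12 tumors. *Tie1* followed with r = 0.67 (permutation p = 0.0219) and rho = 0.57 (permutation p = 0.0781), and *Vwf* had r = -0.16 (permutation p = 0.637) and rho = 0.06 (permutation p = 0.898). Again r and rho of each of the 10 genes were computed over the 12 tumors and in each group. The p-values are not adjusted. Without CTL 6 and knockdown tumor 6, the 2 tumors farthest on *Filip1l*, r for *Eng* was 0.64, again on deviations from the means of all 6 tumors of a group. Within the groups the mean of the 10 genes went up with *Filip1l* (r = 0.64 over 12 tumors, 0.19 in the CTL tumors and 0.93 in the knockdown tumors, a difference that was not tested). Without knockdown tumor 1, r of this mean with *Filip1l* was 0.47. Between the groups the mean was higher where *Filip1l* was lower. Described without a test, that mean also varied within groups with the muscle genes (r = 0.58), the macrophage genes (r = 0.77), the fibroblast genes (r = 0.76) and the pericyte and smooth muscle genes (r = 0.84), and inversely with the epithelial genes (r = -0.63) and the hypoxia genes (r = -0.66). Without knockdown tumor 1, r was 0.67 for the muscle, 0.58 for the macrophage, 0.53 for the fibroblast and 0.75 for the pericyte and smooth muscle genes. It was -0.43 for the epithelial genes and -0.32 for the hypoxia genes, so the pooled value for hypoxia rested in large part on that tumor. By group, r for the hypoxia genes was -0.78 in the CTL tumors and -0.64 in the knockdown tumors. The part of these gene lists in the group difference was not tested. The muscle level itself differed between the groups, so the muscle fits above cannot give its part.

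The 10 genes outside the list whose deviations were most like the mean of the vessel genes over the 12 tumors, among genes with at least 50 normalized counts, were *Layn* (r = 0.95), *Shank3* (0.94), *Chst12* (0.93), *Cthrc1* (0.92), *Syk* (0.92), *Emilin2* (0.92), *Cdh5* (0.91), *S1pr1* (0.91), *Grb10* (0.91) and *Cd93* (0.91). *Cdh5*, *S1pr1* and *Cd93* are themselves known endothelial genes. A like pattern within groups went with group differences in both directions. *Layn* differed by -0.66, *Chst12* by -0.52, *Cthrc1* by -0.77 and *Emilin2* by -0.70, all past an adjusted p of 0.05. *Shank3* at 0.45, *Syk* at 0.87, *Cdh5* at 0.45 and *Cd93* at 0.49 rose. *S1pr1* at 0.26 and *Grb10* at -0.03 did not pass.

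Of 26 other pan-endothelial genes measured, 10 rose, 2 fell and 14 did not pass, with a median of 0.39. Of all genes, 21.1% passed upward and 20.7% downward. *Clec14a*, an endothelial surface lectin, rose by 0.91 (SE 0.20, adjusted p = 0.00206), *Acvrl1*, the receptor kinase that works with endoglin, by 0.75 (SE 0.10, adjusted p = 3.21e-05) and *Cd34* by 0.58 (SE 0.17, adjusted p = 0.0118). *Ecscr* rose by 0.39 (SE 0.10, adjusted p = 0.00581), and *Ptprb*, the phosphatase that acts on TEK, did not pass (-0.01, SE 0.22). The 2 that fell did so by more than any rise, *Tspan18* by 1.41 (SE 0.20, adjusted p = 8.26e-05) and *Adgrf5* by 1.38 (SE 0.15, adjusted p = 6.8e-06). *Adgrf5*, with 4096 ± 802 normalized counts in the CTL tumors (SD, n = 6), is also a gene of the alveolar type 2 cells of the lung.

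Of 18 ligands and other receptors of the same pathways, 4 rose, 6 fell and 8 did not pass, with a median of -0.18. The upward share lies near that of all genes, 21.1%, while the downward share lies above their 20.7%. Beside *Vegfa*, *Pgf*, which encodes placental growth factor, a ligand of FLT1, rose by 1.28 (SE 0.27, adjusted p = 0.00172) and *Adm*, the adrenomedullin gene, by 1.40 (SE 0.30, adjusted p = 0.00177). *Nrp1*, a coreceptor of KDR that epithelial cells also make, fell by 1.18 (SE 0.08, adjusted p = 1.07e-07) and *Vegfc*, a ligand of lymphatic growth, by 0.94 (SE 0.10, adjusted p = 6.3e-06). *Thbs1* and *Thbs2*, which encode the antiangiogenic thrombospondins, fell by 0.68 (SE 0.19, adjusted p = 0.00947) and 0.71 (SE 0.25, adjusted p = 0.0321). The remaining ligands of the 4 receptors described above, named for that role after their values were seen, were *Vegfb*, another FLT1 ligand, which fell by 0.44 (SE 0.09, adjusted p = 0.00155), and the TEK ligands *Angpt1* (-0.75, SE 0.32, adjusted p = 0.0786) and *Angpt2* (0.15, SE 0.12, adjusted p = 0.343), which did not pass. Of the 12 genes listed for the hypoxia response, to which *Vegfa* belongs, 10 rose and 0 fell, among them *Ndrg1* by 1.64 (SE 0.21, adjusted p = 2.8e-05), *Car9* by 1.37 (SE 0.21, adjusted p = 0.000121) and *Slc2a1* by 0.99 (SE 0.18, adjusted p = 0.000658).

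**Figure D5:**
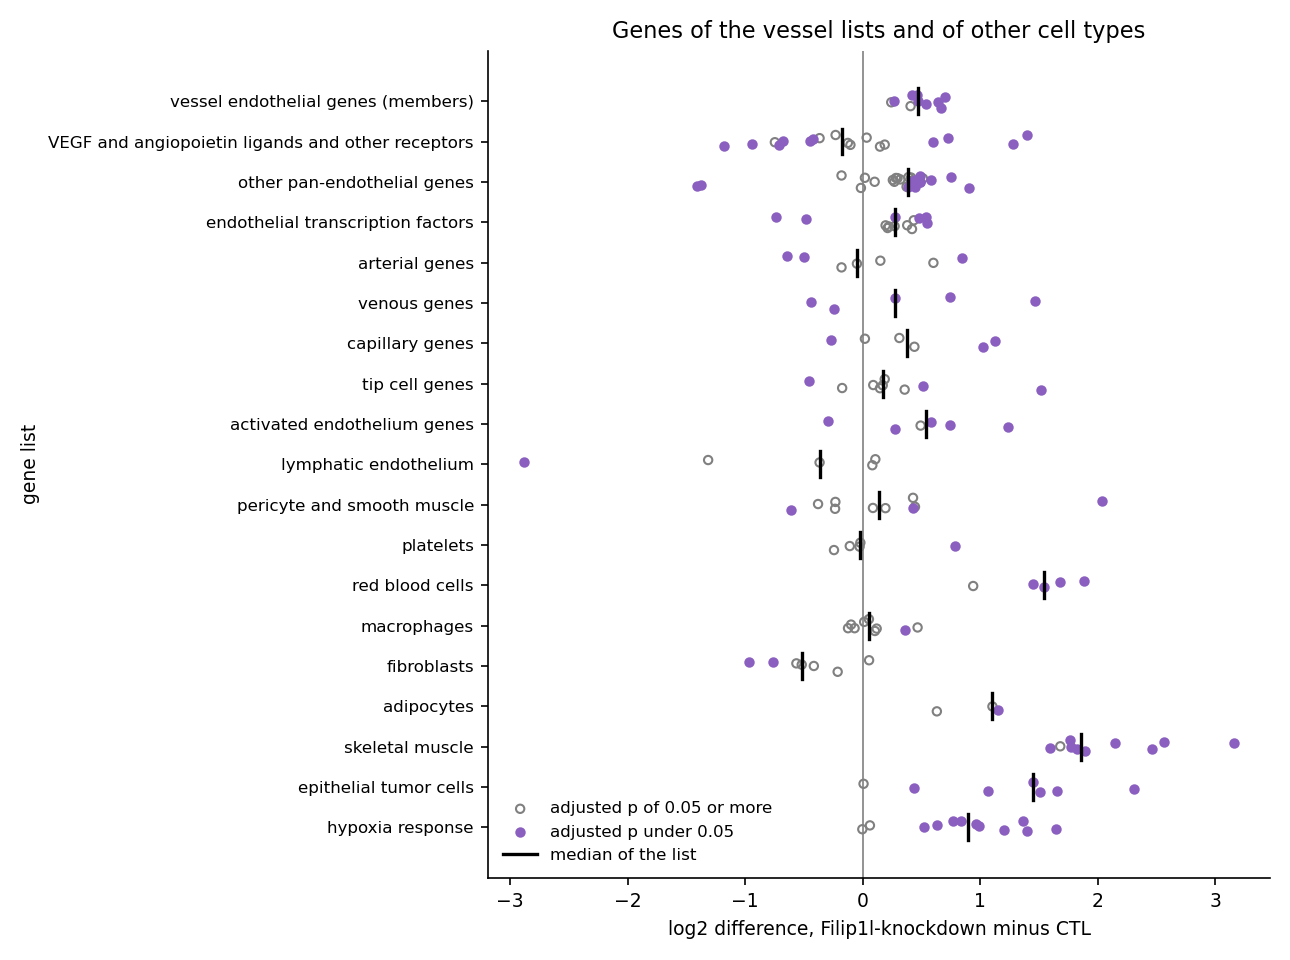
Log2 difference, *Filip1l*-knockdown minus CTL, of each measured gene of the vessel lists and of the lists of other cell types. Each point is a gene, filled where the limma adjusted p was under 0.05, and black bars are list medians, at 0.47 for the 10 vessel genes, 0.39 for other pan-endothelial genes and 1.86 for skeletal muscle. Points are spread vertically for legibility only.

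Genes of vessel subtypes were few in each list, and their counts stand beside the 21.1% of all genes that passed upward and the 20.7% that passed downward. Of the 13 transcription factors listed for endothelium and measured, 4 rose, 2 fell and 7 did not pass. *Sox17* (0.54, adjusted p = 0.0359) and *Sox18* (0.55, adjusted p = 0.00268) rose while their relative *Sox7* fell by 0.73 (adjusted p = 0.000834), and *Klf4* rose by 0.48 (adjusted p = 0.000827) while *Klf2*, a gene induced by blood flow, fell by 0.48 (adjusted p = 0.00739). Of 7 arterial genes 1 rose and 2 fell. *Gja5*, an arterial gap junction gene, rose by 0.85 (adjusted p = 0.00613), and *Efnb2* and *Unc5b*, which epithelial cells also make, fell by 0.64 (adjusted p = 0.000264) and 0.50 (adjusted p = 0.0055). Of 5 venous genes 3 rose and 2 fell, with *Ackr1*, a chemokine receptor of venules, up by 1.47 (adjusted p = 0.000576) *Vcam1*, a leukocyte adhesion gene, up by 0.28 (adjusted p = 0.00279), *Nr2f2*, the venous transcription factor, down by 0.44 (adjusted p = 0.00302) and *Ephb4*, the receptor of EFNB2, down by 0.24 (adjusted p = 0.0388). Of 6 capillary genes 2 rose and 1 fell. The fatty acid genes *Cd36* and *Fabp4*, which adipocytes and muscle also use, rose by 1.13 (adjusted p = 0.000156) and 1.02 (adjusted p = 0.000935). *Aqp1*, a water channel gene and the most abundant of the 6, fell by 0.27 (adjusted p = 0.0161), from 5228 ± 591 to 4331 ± 374 normalized counts (SD, n = 6 each).

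Of 9 tip cell genes, the sprouting state, 2 rose, 1 fell and 6 did not pass. *Kcne3* rose by 1.52 (adjusted p = 4.69e-05) and *Nid2* by 0.51 (adjusted p = 0.00951), and *Lama4* fell by 0.46 (adjusted p = 0.0267). Of 6 genes of activated endothelium 4 rose, 1 fell and 1 did not pass. The selectins *Sele* and *Selp*, which catch leukocytes on inflamed vessels, rose by 1.24 (adjusted p = 0.0293) and 0.75 (adjusted p = 0.0417), and *Icam1* rose by 0.58 (adjusted p = 0.000136), as did *Vcam1*, which is in this list too. *Procr*, the receptor of the anticoagulant protein C, fell by 0.29 (adjusted p = 0.0354). *Sele* was low, with 11.4 ± 5.23 normalized counts in the CTL tumors against 28.8 ± 12.9 (SD, n = 6 each). Of the 5 lymphatic genes measured, 0 rose, 1 fell and 4 did not pass, and 2 of the 5 had a positive difference. *Prox1*, the lymphatic master regulator, fell by 2.88 (SE 0.36, adjusted p = 2.3e-05), from 377 ± 103 to 58.8 ± 42.4 normalized counts (SD, n = 6 each). The lymphatic receptor gene *Flt4* did not pass (-0.37, adjusted p = 0.227).

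Cells that lie on or in vessels were read beside the 10 genes. The counts here and in the next paragraph stand beside the 21.1% of all genes that passed upward and the 20.7% that passed downward. Of 10 pericyte and smooth muscle genes, 2 rose, 1 fell and 7 did not pass. *Des*, which skeletal muscle also makes in quantity, rose by 2.04 (adjusted p = 0.00358), *Abcc9*, a pericyte potassium channel subunit, by 0.43 (adjusted p = 0.0479), and *Acta2* fell by 0.61 (adjusted p = 0.0145). Of 5 red blood cell genes 4 rose and 0 fell, with a median of 1.54. *Hbb-bs* went from 186 ± 76.7 to 579 ± 177 normalized counts (SD, n = 6 each), and its reads may be shared with its near-identical copy. Their summed level ran from 203 to 599 in the CTL tumors and from 774 to 1585 in the knockdown tumors, with no overlap. Within groups, the red cell genes did not follow the vessel genes (r = 0.06). Of 5 platelet genes measured, which matter here because platelets also hold the products of *Vwf* and *Esam*, 1 rose and 4 did not pass. *Pf4* rose by 0.78 (adjusted p = 0.00219), and *Itga2b*, which defines platelets, did not pass (-0.24, adjusted p = 0.479).

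Of 9 macrophage genes 1 rose, *Cd68* by 0.36 (adjusted p = 0.0401), and 8 did not pass. The paper reported more myeloid cells and neutrophils in knockdown tumors by flow cytometry, while no neutrophil genes were listed here. How much blood or immune cells added to the levels of the 10 vessel genes was not tested. Of 7 fibroblast genes 0 rose and 2 fell, *Col1a1* by 0.76 (adjusted p = 0.0108) and *Col1a2* by 0.97 (adjusted p = 0.00626). Of 3 adipocyte genes measured 1 rose, *Cidec* by 1.15 (adjusted p = 0.000186). Of 10 skeletal muscle genes 9 rose and 0 fell, with a median of 1.86, and of 7 epithelial genes 6 rose and 0 fell, with a median of 1.45.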

How the data were processed

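Total RNA of 12 snap-frozen tumors was sequenced by the authors, each tumor as its own library. Per the submitters' processing notes and the study's methods, reads were demultiplexed with bcl2fastq 2.20, trimmed with Trimmomatic 0.36, aligned with STAR 2.5.2b to the mouse genome (mm10), and counted per gene with featureCounts of Subread 1.5.2. The deposited signal values are normalized counts, which the authors made by dividing each gene count by the DESeq2 size factor of its tumor. Every value was a whole multiple of 1 step per tumor (100% of values, tolerance 0.01), so reads were recovered and gave the depth per tumor. Interval widths and p-values reflect the spread between tumors, and do not cover the spread between separately made cell lines or hairpins.

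Samples were grouped by their labels into 6 CTL and 6 knockdown tumors. Differences were tested on log2 of the normalized count plus 1 over all 15687 genes with limma 3.58.1 (R 4.3.3, variance trend, no covariate), because the values are not whole counts, although the study used DESeq2. A filter at a mean of 5 removed no gene. Gene symbols came from GENCODE vM21 (15655 IDs matched). Fold changes on this scale understate those of low genes. Slopes on *Vegfa* came from the same kind of fit with group as a term. Correlations used deviations from group means, with 100000 permutations within groups. The scripts were tested on simulated data. Alternatives were another pseudocount, filter, scaling or count test (edgeR 4.0.16 and DESeq2 1.42.0 on the recovered reads), a replicate block, the ratio to *Cdh5*, each tumor left out, and 2 settings for skeletal muscle. Tumors with the same replicate number did not deviate together (correlations of -0.27 to 0.10), so the main fits used no pairing. These correlations cannot show whether tumors shared a cage or batch. The members, lists and tests were chosen with earlier results of these data known. Named genes are the members, *Vegfa*, *Filip1l*, *Cdh5*, up to 5 genes per list with the largest change past the threshold and up to 3 with the highest mean, and the 10 genes most like the members' mean. Skeletal muscle, epithelial, red blood cell, platelet, macrophage, fibroblast, adipocyte, hypoxia and vessel subtype lists were read beside them, and some genes stand in more than 1 list. *Etv2*, *Ccl21a*, *Plin1*, *Lep*, *Retn*, *Slc4a1* and 5 platelet genes were not among the listed genes.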

Additional observations from a re-analysis of the deposited data

Results flagged for a closer look

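A tumor was marked as standing apart where its gap to the nearest tumor of its group was a large share of the group's range (Dixon's test, 95% critical value for 6 tumors). Of 83 genes named or plotted and checked in both groups, 8 groups of 166 were marked, and chance marks about 1 in 20 groups. Of the 10 vessel genes, 0 were marked. *Cdh5*, used as the endothelial reference, was low in CTL 5 at 664.7 normalized counts, where the next CTL tumor had 749. Knockdown tumor 1 was high for the lymphatic receptor gene *Flt4* at 664 (next 340.1) and for *Tspan18* at 271 (next 139). Knockdown tumor 4 was low for *Epas1* at 1025 (next 1266) and for *Acta2* at 1708 (next 2960.2), and high for *Aqp1* at 5054 (next 4391). CTL 3 was high for the macrophage genes *Cd68* at 942 (next 762) and *C1qa* at 6678 (next 4908).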

How the results depend on the processing

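The count of 8 vessel genes past an adjusted p of 0.05 held under both other pseudocounts, both other filters, edgeR and DESeq2 on recovered reads and the replicate block (8 each, the same genes in each). It was 7, without *Eng*, when all tumors were scaled to the same 75th percentile or the same total and when limma was run without a trend, and 7 to 9 when 1 tumor was left out. It was 4 with the muscle covariate, 4 without knockdown tumors 1, 3 and 4, and 0 relative to *Cdh5*, where the median of the 10 genes was 0.0203 and *Flt1* (-0.0242), *Tek* (-0.0388), *Esam* (-0.20) and *Eng* (-0.18) had a negative sign. *Vegfa* was 0.28 relative to *Cdh5* (adjusted p = 0.151). The cause of these shifts was not tested, and the ratio to *Cdh5* removes by construction what the genes share with it. With 1 tumor left out, the median ran from 0.41 to 0.53. Tumors of the same replicate number did not deviate together, and the replicate block changed no call of a vessel gene or of *Vegfa*. Over all genes, 1596 passed both thresholds, 1635 by edgeR and 1652 by DESeq2.

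Slopes on *Vegfa* called 0 of the 10 genes under every alternative run. Their sign was less settled: *Kdr* was 0.0518 with the same total, and without knockdown tumors 1, 3 and 4 it was 0.33, with *Tek* at 0.30 and *Tie1* at 0.0557. With 1 tumor left out, slopes ran from -0.44 to 0.34 for *Kdr*, -0.39 to 0.19 for *Flt1*, -0.53 to 0.19 for *Tek*, -0.59 to 0.0118 for *Tie1* and -0.0482 to 0.61 for *Vwf*. The lowest value of a vessel gene in any tumor was 83.3 normalized counts (*Tek*), well above the 3 reads that a count of 0 would allow.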
